A study of Rattus norvegicus with 12 samples.

Results

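Spidr is the host gene of the circle with the highest mean level in rat liver in this series, and it was chosen by that level, the RPM averaged over all libraries. Circular RNAs (circRNAs) form when the 3′ end of an exon is joined back to the 5′ end of the same or an earlier exon, and they are recognised by reads across that back-splice junction. A circle has no free ends, so it survives RNase R, an enzyme that digests linear RNA. Spidr encodes a scaffold protein of DNA repair; in human cells it binds the BLM helicase and takes part in homologous recombination, the repair of double-strand breaks from an intact copy. Nothing in that role concerns its circles, which are read here as a feature of the transcript.

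Liver of Wistar, wild type rats was sequenced in 12 libraries: 5 after a sham operation, 5 taken 3 months after sleeve gastrectomy (removal of most of the stomach) and 2 from rats whose diabetes came back after sleeve gastrectomy. All groups, controls included, had received a high-fat diet (60% of calories as fat) for 4 weeks and 1 injection of streptozotocin, a beta cell toxin, at 35 mg/kg after 16 h without food, and had passed 16.7 mmol/L fasting blood glucose. No group analysed here was without this induction of diabetes; blood glucose at the time of sampling is not given. When the sham and relapse livers were taken and how relapse was defined is not given in the sources used, nor that each library is a separate animal, so p-values measure the spread between these libraries only. RNA was depleted of ribosomal RNA and treated with RNase R, so linear Spidr RNA is not measured.

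Of the 21876 entries of the table, 15 belonged to Spidr: 10 entries with that gene name and 5 that carry its Ensembl identifier ENSRNOG00000037851, joined through the transcript ENSRNOT00000089517 or through an identical junction. They describe 14 junctions on the minus strand of chromosome 11 and hold 6325 reads, the most of any host gene. Libraries held 18176 to 37229 back-splice reads and fell into 8 with 18176 to 21509 and 4 with 29205 to 37229 (sham 1, sleeve gastrectomy 4 and 5, relapse 2). Levels are in RPM, the reads of a junction scaled to a common total of back-splice reads per library (reads per 1000000); each is a count at 1 junction, so gene length does not enter. Of 15 genes that define hepatocytes, 12 had reads, and Ttr, Cyp3a2 and Ahsg were at 0. Their summed level was 29981 to 42914 RPM in sham, 26287 to 41917 after sleeve gastrectomy and 23548 to 24336 in relapse. Of the markers of other cells, 6 of 10 of liver endothelium had reads (275 to 903, 473 to 1409 and 886 to 1353 RPM in the same order; Pecam1, Lyve1, Clec4g and Eng at 0). Reads were also found for 3 of 10 markers of macrophages (0 to 418, 0 to 786 and 0 to 242 RPM; Cd68 and Clec4f at 0), 3 of 10 of stellate cells (0 to 232, 0 to 344 and 80.6 to 217 RPM; Des and Lrat at 0), 1 of 8 of cholangiocytes (0 to 156, 0 to 68.5 and 0 RPM; Krt7 and Krt19 at 0) and 0 of 10 of lymphocytes.

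The leading circle, circRNA278, joins the 3′ edge of exon 3 to the 5′ edge of exon 2, in the numbering of the deposited table (Rnor_6.0, chr11:89175426-89180448, minus strand). It spans 5023 bases of the genome and took 5880 of the 6325 Spidr reads, or 93.0%. The table gives the number of exons but not their lengths, so the length of the closed RNA is not known. The other junctions were rare and lay mostly downstream. CircRNA276, exons 5 and 6 (chr11:89108655-89110961), had 209 reads. CircRNA277, exons 2 to 4 (chr11:89155751-89180448), uses the same 5′ edge as circRNA278 and had 125 reads. A circle of exons 8 to 10 (chr11:89034507-89036388) had 61 reads and is called circRNA275 here.

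The junction of circRNA275 was written under different names in different libraries. Its reads stood in the entry circRNA275 in 7 libraries and in the identifier entry circRNA12243 in 2, sleeve gastrectomy 4 and 5. No library had reads in both entries, and 3 had reads in neither. The values here are the sum of both.

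Counted by exon, exons 2 and 3 each lay in 6006 reads, 95.5% of the exonic Spidr reads. Exon 4 lay in 131 reads, exons 5 and 6 in 212 each, and exons 8, 9 and 10 in 62 each. Exon 7 lay in 1 read, that of circRNA12660 (exons 5 to 7), and exons 11 and 12 in 4 each. Exon 1 lay in none. The exonic circles with at least 3 reads thus fell into separate stretches: exons 2 to 4, exons 5 and 6, exons 8 to 10, and exons 11 and 12 (circRNA274, 3 reads). Circles that ran across these stretches had 1 read each: circRNA18385 (exons 2 to 6), circRNA10900 (exons 4 to 6) and circRNA9555 (exons 8 to 12). CircRNA12660, also with 1 read, added exon 7 to exons 5 and 6.

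**Figure D1:**
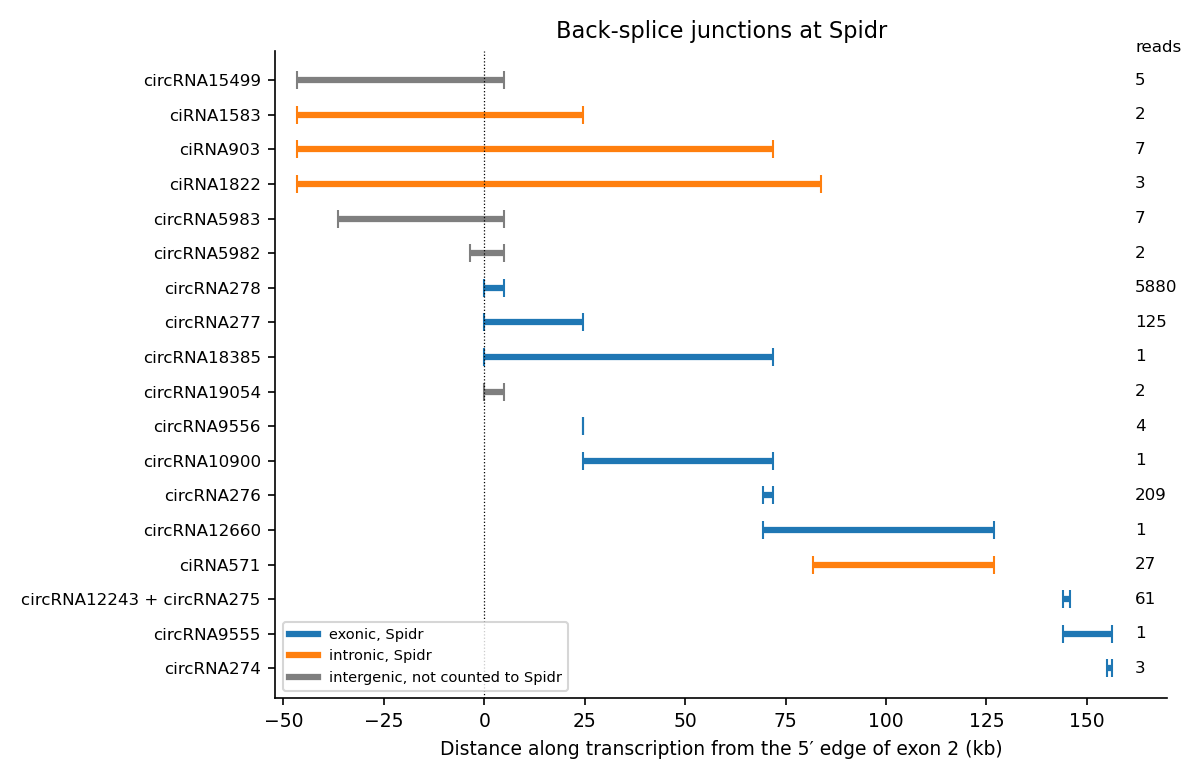
Extent of each back-splice junction at Spidr, as distance in kb along transcription from the 5′ edge of exon 2, with its reads over 12 libraries at the right; blue lines are exonic and orange lines intronic Spidr entries, and grey lines are intergenic entries that share the 3′ edge of circRNA278. Of all lines, the short circRNA278 carries 5880 reads, and the line next in reads, circRNA276, carries 209.

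The remaining 10 junctions had 27 reads or fewer. Of these, ciRNA571 (chr11:89053516-89098530), labelled intronic, had 27 reads in 7 libraries. The other 9 held 23 reads in all, 4 of them a single read, and 7 of the 9 were seen in 1 library. The 4 junctions labelled intronic took 39 reads, 0.617% of the total. For 3 of these 4, the 3′ edge was also that of an exonic circle. In ciRNA571 the 3′ edge was that of exon 7, in ciRNA903 that of exon 6 and in ciRNA1583 that of exon 4. These matches count the deposited starts of intronic and intergenic identifier entries from 0: of 1482 such entries in the table, 206 began 1 base before the start of an exonic circle and 0 on it.

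A 5′ edge outside the numbered exons recurred. Position 89227006, 46558 bases upstream of the edge of exon 2, was the 5′ edge of ciRNA903 (7 reads), ciRNA1822 (3 reads), ciRNA1583 (2 reads) and the intergenic circRNA15499 (5 reads). The 17 reads came from sleeve gastrectomy 1, 4 and 5 and, for circRNA15499, from sham 1. The position of exon 1 is not in the table, so whether this edge belongs to an annotated exon was not tested. Counting circRNA15499, 4 intergenic entries that are not assigned to Spidr used the 3′ edge of circRNA278. Their 16 reads came from sham 1, sham 5 and relapse 2 alone, 10 from sham and 6 from relapse. One of the 4 entries, circRNA19054, ended 13 bases from the 5′ edge of circRNA278. Against the 5880 reads of circRNA278, the alternative partners of its 3′ edge were rare.

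By level, circRNA278 averaged 20090.02 ± 3164 RPM (SD, n = 12), between 1.63% and 2.56% of the back-splice reads in a library. The next junction, circRNA820 of Nf1x, averaged 18183 ± 3244 RPM, and the next with a host gene after that, circRNA508 of Cdyl, a chromatin co-repressor, averaged 10612 ± 2031 RPM. CircRNA278 had rank 1 in 8 of 12 libraries, rank 2 in sleeve gastrectomy 2, 3 and 4, and rank 3 in sham 4. These levels chose the gene and are given as a description.

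The level of circRNA278 was among the least variable of the abundant junctions. Its coefficient of variation over the 12 libraries, groups pooled, was 15.7%, rank 3 from the lowest of the 50 most abundant junctions, whose median was 27.9% and range 14.3% to 270.05%. Counting error is smallest at high counts, so a low value is partly a property of the level. Counting alone would give an SD of 932 RPM, against the 3164 observed. Nf1x and Cdyl, at 17.8% and 19.1%, had ranks 4 and 8.

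**Figure D2:**
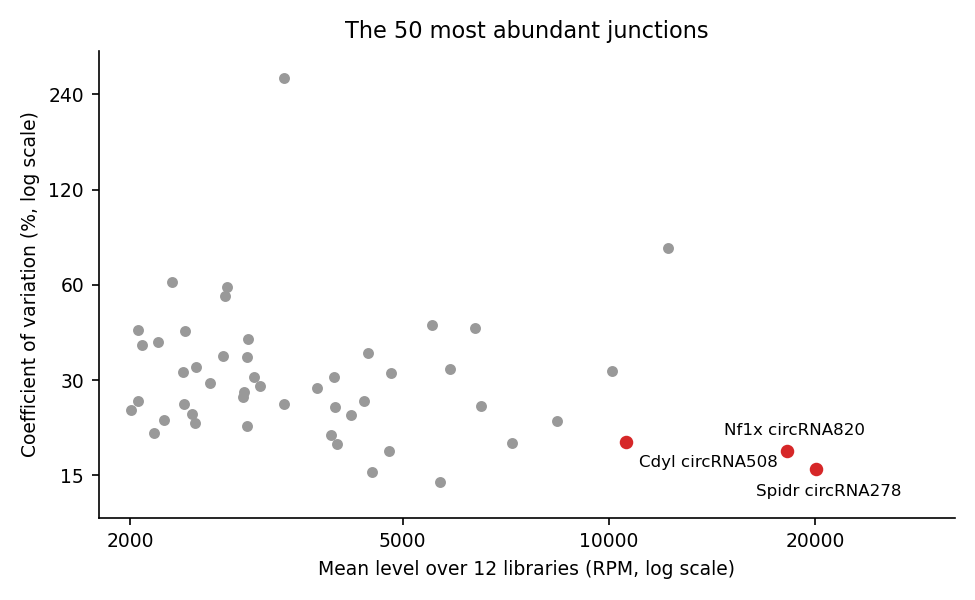
Coefficient of variation (%) over 12 libraries against mean level (RPM), both on log scales, for the 50 most abundant junctions, each a point; circRNA278, circRNA820 of Nf1x and circRNA508 of Cdyl are red. CircRNA278 lies at the right, at 15.7%, where the median of the points is 27.9%.

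Spidr was less concentrated on its leading junction than several other abundant hosts. Among the 83 hosts with at least 500 reads, its leading share of 93.0% had rank 20, where the median was 74.0%. Nf1x had 99.7% on its leading junction and Cdyl 93.9%. Spidr spread over 14 junctions, against 7 of Nf1x, 6 of Cdyl and a median of 9. No test was made of these ranks.

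Sleeve gastrectomy against sham asks how the operation goes with the Spidr circles of diabetic liver. CircRNA278 had 21282, 17165, 16708, 16347 and 17946 RPM in sham 1 to 5. After sleeve gastrectomy 1 to 5 it had 21218, 19949, 17313, 20347 and 25578 RPM. The groups overlapped: 4 of 5 sleeve gastrectomy libraries were above the sham mean, and 1 was above every sham library. The means were 17889.7 ± 1988 and 20881 ± 3002 RPM (SD, n = 5 and 5), from 1988 and 2544 reads. In edgeR's quasi-likelihood test over all 1519 junctions the log2 fold change was 0.24 (SE 0.16, adjusted p = 0.996). It was 0.13 to 0.36 when 1 library was left out; without sham 1 it was 0.36. None of the junctions was called (0%), with 3.88% at an unadjusted p under 0.05.

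Summed over its junctions, Spidr had 21845, 18376, 17853, 18001 and 19573 RPM in sham and 22825, 21521, 19362, 22248 and 26810.5 RPM after sleeve gastrectomy. All 5 sleeve gastrectomy libraries were above the sham mean, as in 5.1% of the tested hosts, and 3 were above every sham library. The means were 19129.7 ± 1661 and 22553 ± 2717 RPM (SD, n = 5 and 5). The log2 fold change was 0.23 (SE 0.16), and Spidr was not among the 2 of 1334 hosts called, 0.15% (edgeR adjusted p = 0.994), with 3.75% at an unadjusted p under 0.05. An exact two-sided permutation test of the RPM gave p = 0.0397, or 0.0714 adjusted over the 3 comparisons. Neither test passed after adjustment.

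**Figure D3:**
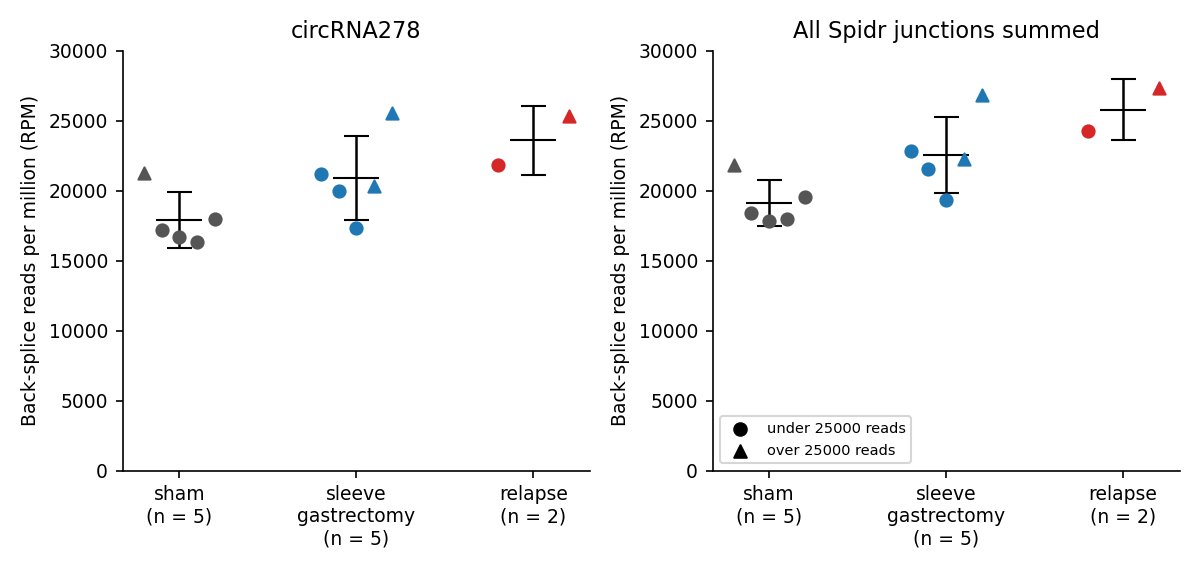
Level of circRNA278 (left) and of all Spidr junctions summed (right) in RPM by group; each point is a library, triangles are the 4 libraries with over 25000 back-splice reads, and lines show the mean and SD. Sham libraries of circRNA278 lie at 16347 to 21282 RPM and relapse libraries at 21869.8 and 25357 RPM.

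Relapse against sham had the largest difference of the 3 comparisons. CircRNA278 had 21869.8 RPM in relapse 1 and 25357 in relapse 2, from 404 and 944 reads. Both were above all 5 sham libraries, as in 6.19% of the tested junctions. The relapse mean was 23613 ± 2466 RPM (SD, n = 2), a log2 fold change against sham of 0.42 (SE 0.20) that did not pass (edgeR unadjusted p = 0.0478, adjusted 0.839). Without relapse 2 it was 0.10. For the summed gene, relapse had 24252 and 27344 RPM, both above every sham library, as in 5.32% of the hosts. Its log2 fold change was 0.39 (SE 0.21, edgeR adjusted p = 0.812); 2 of 1334 hosts were called, 0.15%, with 5.7% of hosts and 5.79% of junctions at an unadjusted p under 0.05. The exact permutation p was 0.0476 for either measure, the smallest that 21 splits of 2 against 5 can give, and 0.143 for circRNA278 and 0.0714 for the sum after adjustment over 3 comparisons. In the relapse libraries the summed level of the hepatocyte genes lay below that of every other library. That sum rests mostly on Cyp2c7, a steroid and drug hydroxylase (19914 ± 2584 RPM in sham and 11849 ± 603 in relapse; SD, n = 5 and 2), and Cps1, of the urea cycle (5761 ± 1329 and 3366 ± 1698 RPM). Of the 9 tested hepatocyte genes, C3 and Tat were higher in relapse (means 2172 and 1159 RPM) than in sham (1728 and 951 RPM). The others were lower in relapse. Alb differed little, with 1511 RPM in relapse and 1575 in sham. In the same order Tf had 2550 and 3153 RPM, Pck1 729 and 1087, Hp 310 and 815, and Apob 108 and 211. The median log2 fold change of the 9 in relapse against sham was −0.65, where that of all hosts was −0.06. None of the 9 was called in edgeR, but limma-voom called Cyp2c7, here and between relapse and sleeve gastrectomy. The part of cell makeup in the Spidr values was not tested. In bulk liver, fewer cells of a type and less RNA per cell cannot be told apart.

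Relapse against sleeve gastrectomy asks what goes with the return of diabetes after the operation. The relapse libraries of circRNA278 lay within the range after sleeve gastrectomy, 17313 to 25578 RPM, and both were above its mean. The log2 fold change was 0.17 (SE 0.21, edgeR adjusted p = 0.9995), and without relapse 2 it was −0.16. At an unadjusted p under 0.05 stood 4.42% of hosts and 4.81% of junctions, with 0% of junctions called. The summed gene had a log2 fold change of 0.16 (SE 0.21, edgeR adjusted p = 1), where 1 of 1334 hosts was called, 0.075%, and exact permutation gave p = 0.238, or 0.238 adjusted. For circRNA278 exact permutation gave p = 0.333.

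Depth moved with these levels. CircRNA278 had 16347 to 21869.8 RPM in the 8 libraries under 25000 reads and 20347 to 25578 in the 4 above. Within the 8, sham libraries had 17042 ± 690 RPM (SD, n = 4), sleeve gastrectomy libraries 19493 ± 1992 (SD, n = 3) and the relapse library 21869.8. Within the 4, the sham library had 21282 RPM, the 2 sleeve gastrectomy libraries 20347 and 25578, and the relapse library 25357. With the depth class as a term of the edgeR fit, chosen after seeing the data, the log2 fold changes of circRNA278 became 0.16 between sleeve gastrectomy and sham, 0.13 between relapse and sleeve gastrectomy and 0.29 between relapse and sham. In the same order, which later sets of 3 comparisons keep, they were 0.24, 0.17 and 0.42 without it. Within the 8 shallower libraries level and depth had a Pearson r of 0.19 (permutation p = 0.648) and a Spearman rho of 0.17 (permutation p = 0.703), and r was −0.04 without the 2 libraries farthest from the median depth. The share of circRNA278 among Spidr reads, the second relation tested in this way, had r of 0.23 (permutation p = 0.561) and rho of 0.07 (permutation p = 0.882).

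On the authors' SRPBM scale, which multiplies each count by 1 constant per library, the libraries stood farther apart. CircRNA278 had 98.2 SRPBM in sham 1 and 53.5 to 62.0 in sham 2 to 5. After sleeve gastrectomy it had 54.5 to 132.6 SRPBM, and in relapse 68.1 and 142.6. Every group thus spanned its range more widely than in RPM. On this scale the 8 libraries under 25000 reads had 53.5 to 79.0 SRPBM and the 4 above 97.3 to 142.6, without overlap. The total of all back-splice reads split in the same way, at 3115 to 3724 and 4613 to 5625 SRPBM. The part of depth in the SRPBM differences was not tested. Exact permutation p-values for the 3 comparisons were 0.23, 0.619 and 0.0952, and 0.345, 0.619 and 0.286 adjusted over the 3. With these constants as library sizes in edgeR, also chosen after seeing the data, the log2 fold changes of circRNA278 were 0.41, 0.29 and 0.70, over 1.5 times those above, and none passed.

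The share of circRNA278 among Spidr reads differed little between groups. It was 97.4%, 93.4%, 93.6%, 90.8% and 91.7% in sham 1 to 5, with a mean of 93.4 ± 2.54% (SD, n = 5). After sleeve gastrectomy 1 to 5 it was 93.0%, 92.7%, 89.4%, 91.5% and 95.4%, with a mean of 92.4 ± 2.19% (SD, n = 5). In relapse it was 90.2% and 92.7%, with a mean of 91.5 ± 1.80% (SD, n = 2). The highest share, in sham 1, had a 95% Wilson interval of 95.9% to 98.4%, and the lowest, in sleeve gastrectomy 3, of 85.8% to 92.2%, which cover counting error only. The 3 differences were −0.998, −0.93 and −1.93 percentage points. Two-sided exact permutation p-values were 0.5, 0.714 and 0.381, each 0.714 after adjustment over 3 comparisons, where the smallest possible are 0.00794 and 0.0476. Without sham 1 the first difference was 0.01, and without relapse 1 the second was 0.34. The third was −0.653 without relapse 1, −3.20 without relapse 2 and −3.96 with the replicate number as a block.

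**Figure D4:**
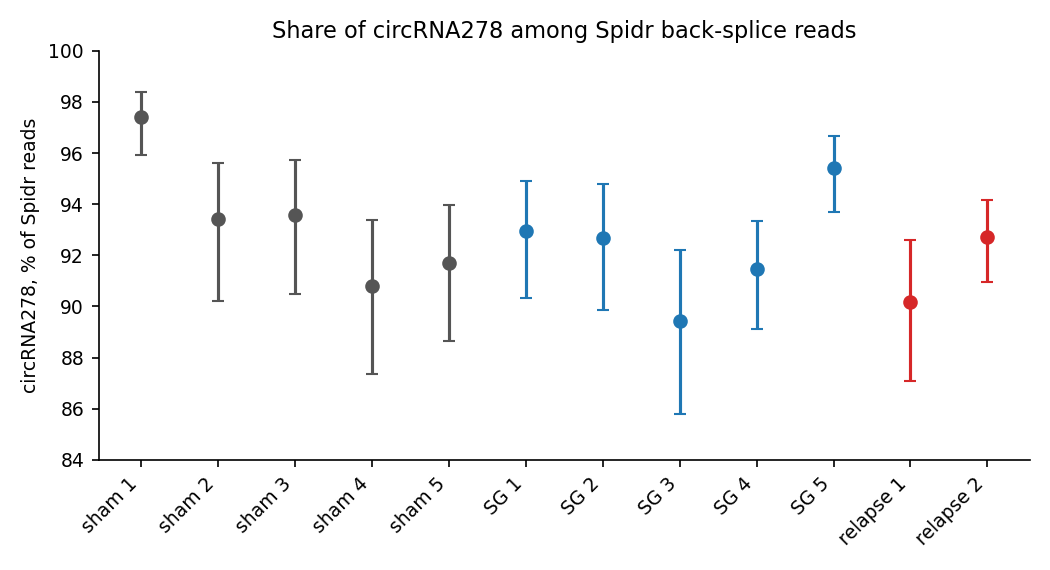
Share of circRNA278 among all Spidr back-splice reads (%) in each of the 12 libraries (SG, sleeve gastrectomy), with 95% Wilson intervals as bars; the axis starts at 84%. The groups overlap, and the shares run from 89.4% in SG 3 to 97.4% in sham 1.

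The minor circles are where libraries differed most in proportion. The coefficient of variation over the 12 libraries was 32.6% for circRNA276 and 49.7% for circRNA277. Counting error is larger in proportion at such low counts, and its part was not estimated here. CircRNA276 (exons 5 and 6) had 265, 495, 624.6, 903 and 697 RPM in sham 1 to 5, from 8 to 18 reads. It had 520, 1032, 1025, 983 and 651 RPM after sleeve gastrectomy and 920.3 and 806 in relapse. The 3 groups overlapped, with means of 597 ± 237, 842 ± 240 and 863 ± 80.9 RPM (SD, n = 5, 5 and 2). No comparison passed in edgeR, with log2 fold changes of 0.53 (SE 0.37, adjusted p = 0.996) after sleeve gastrectomy and 0.56 (SE 0.47, adjusted p = 0.954) in relapse, both against sham. The latter was 0.35 without sham 1 and 0.996 with the replicate number as a block.

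CircRNA277, which extends circRNA278 by exon 4, had 132 to 652 RPM in sham (median 440.1), 205 to 662 after sleeve gastrectomy (median 393) and 920.3 and 457 in relapse. Per 100 reads of circRNA278 the sham libraries had 2.41 ± 1.46, the sleeve gastrectomy libraries 2.12 ± 1.0003 and the relapse libraries 3.00 ± 1.70 (SD, n = 5, 5 and 2). The groups overlapped on both measures. Exact permutation p-values of that ratio were 0.738, 0.429 and 0.619, all 0.738 when adjusted over 3. The 4 deep libraries had 132 to 457 RPM of circRNA277 and the 8 others 208 to 920.3, with overlap.

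The circle of exons 8 to 10, circRNA275 with circRNA12243, had 379 and 618 RPM in relapse, from 7 and 23 reads. Sham 1 to 5 had 0, 275, 312, 0 and 93.0 RPM, and sleeve gastrectomy 1 to 5 had 0, 147, 324, 197 and 103 RPM. Both relapse libraries were above all 10 others, as in 1.84% of the tested junctions. A count of 0 allowed up to 99.3 RPM in sham 1, 150.4 in sham 4 and 142 in sleeve gastrectomy 1. The log2 fold change was 1.96 (SE 1.05) against sham and 1.71 (SE 1.03) against sleeve gastrectomy, and neither passed (edgeR adjusted p = 0.842 and 0.9995). Without relapse 2 they were 1.33 and 1.06, and with the replicate number as a block 3.23 and 2.83, which did not pass either (edgeR adjusted p = 1 for both).

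The last junction with at least 10 reads, ciRNA571, had 0 to 139 RPM in sham, 0 to 236 after sleeve gastrectomy and 0 and 107 in relapse; 5 libraries had none, and it did not pass the filter on low counts. Of the 14 Spidr junctions 4 passed that filter, and 0 of these were called in any comparison. Spidr reads outside circRNA278 came to 1240.02 ± 445 RPM (sham), 1672 ± 317 (sleeve gastrectomy) and 2185 ± 279 (relapse), as mean and SD of 5, 5 and 2 libraries. Their exact permutation p-values were 0.127, 0.1905 and 0.0476, and 0.1905, 0.1905 and 0.143 adjusted over 3.

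**Figure D5:**
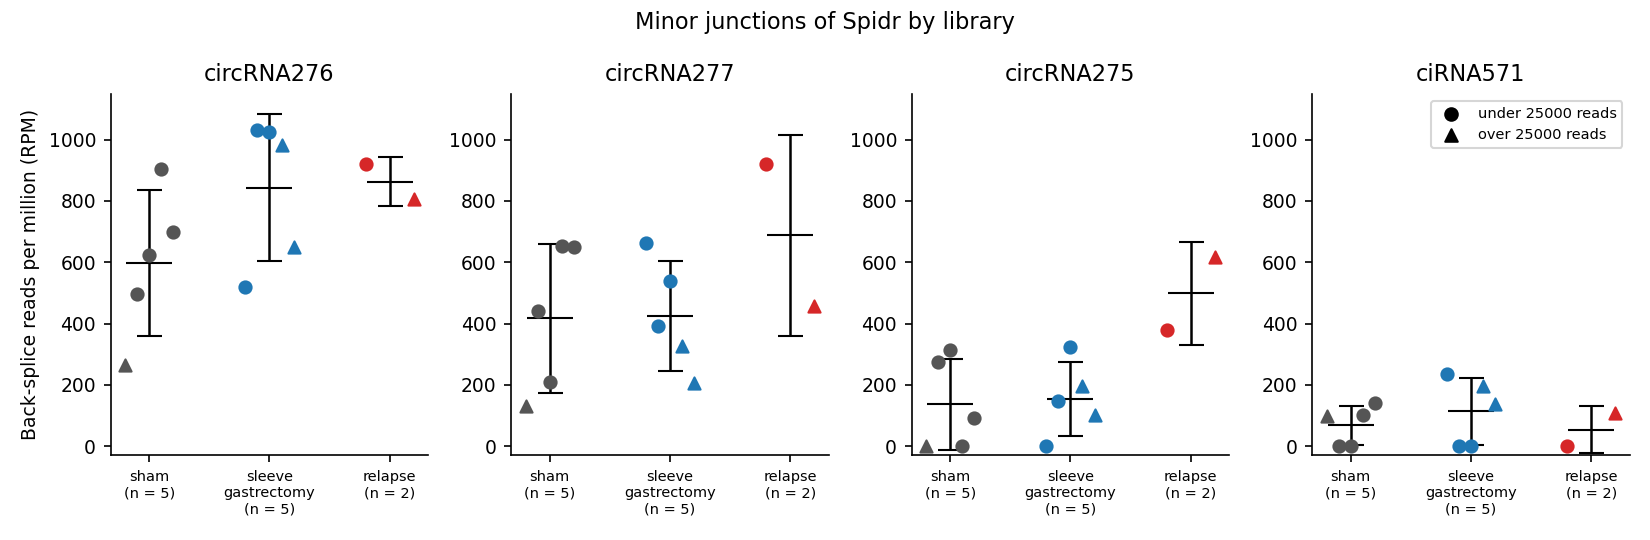
Levels in RPM of the 4 minor Spidr junctions with at least 10 reads, by group; each point is a library, triangles are libraries with over 25000 reads, and lines show the mean and SD. Both relapse libraries of circRNA275 (summed with circRNA12243), at 379 and 618 RPM, lie above the other 10.

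The genes of the pathway that Spidr serves are given for context; Spidr was chosen for its level, so no comparison of levels with it is made. Back-splice reads were found for 21 of 53 genes of homologous recombination and break processing, 2 of which passed the filter, and their summed level was 108 to 1755 RPM per library. Blm, the helicase that human SPIDR binds, had 2 reads, both after sleeve gastrectomy. Brca1, a recombination factor mutated in hereditary breast cancer, had 442 ± 283 RPM (sham), 321 ± 176 (sleeve gastrectomy) and 26.9 ± 38.0 (relapse; SD, n = 5, 5 and 2). Its log2 fold change in relapse was −3.56 against sham (edgeR adjusted p = 0.310) and −3.07 against sleeve gastrectomy (edgeR adjusted p = 0.7), on 92 reads in all. Rbbp8, which starts the resection of break ends, had 60.2 ± 135, 177 ± 123 and 26.9 ± 38.0 RPM, Wrn had 18 reads and Atm 8. None of the list was called in any comparison. Its 2 tested hosts, Brca1 and Rbbp8 (31 reads in all), had a median log2 fold change of 0.54 after sleeve gastrectomy against sham. That of all 1334 hosts was 0.01. In relapse it was −2.17 against sham and −2.71 against sleeve gastrectomy, where all hosts had −0.06 and −0.05. With so few relapse reads, both hosts passed the filter through sham and sleeve gastrectomy libraries alone. A lower relapse value was thus favoured in advance, and these medians and the Brca1 differences are only a description. The relapse mean of each of the 2, 26.9 RPM, lay below the 162.4 and 80.6 RPM that a count of 0 allows in relapse 1 and 2.

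Of 24 genes of end joining and break signalling, 15 had reads, 3 passed the filter and none was called. Xrcc4, a ligase cofactor of end joining, had 257 ± 211, 272 ± 182 and 649 ± 537 RPM in the same groups. Prkdc, the DNA-dependent protein kinase of the same pathway, had 316 ± 287, 222 ± 96.5 and 175 ± 58.1 RPM. Topbp1, an activator of the ATR kinase, had 100.4 ± 61.8, 148 ± 139 and 242 ± 113 RPM, and Xrcc1, of single-strand break repair, had 23 reads. The median log2 fold change of the 3 tested hosts was 0.14, 0.69 and 1.22 in the 3 comparisons, where all hosts had 0.01, −0.05 and −0.06.

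The tested hosts whose level followed that of Spidr most closely over the 12 libraries (Pearson correlation of log2 CPM, groups pooled) were Armh3 with 0.77, Sfmbt1, a chromatin protein, with 0.76, Tead1, a transcription factor of the Hippo pathway, with 0.73, Abat, which degrades the transmitter GABA, with 0.72, and Cabin1, an inhibitor of calcineurin, with 0.72. The lowest value was −0.76, for Hars2, a mitochondrial histidyl-tRNA synthetase. Over all 1333 other hosts the median was 0.05, and 5.33% were above 0.5. The points share their library and depth, and Abat rests on 30 reads and Sfmbt1 on 78, so these values are a description.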

How the data were processed

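Per the labels' protocols, liver RNA was depleted of ribosomal RNA, digested with RNase R and sequenced as paired-end libraries with dUTP strand marking. Per the submitters' processing notes, cutadapt 1.9, FastQC, TopHat2 2.0.10 and the genome build Rnor_6.0 were used; how back-splice reads were called is not given in the sources used here. The authors deposited a count of back-splice reads per entry and library and an SRPBM value; the counts were whole numbers, and SRPBM was the count multiplied by 1 constant per library. All 12 count columns were used.

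Entries were joined into 21068 junctions and 6017 host genes; 1453 of 1696 Ensembl identifiers were matched to a symbol through a shared gene record, transcript or junction. Starts are printed counted from 1; those of entries named by symbol, and of intronic or intergenic identifier entries, are deposited counted from 0. Exonic identifier entries were taken as counted from 1. Of 2219 such entries, 958 began on the start of an exonic circle named by symbol and 268 began 1 base before one. For joining into junctions, the starts of intronic and intergenic identifier entries were used as deposited. Differences were tested by the robust quasi-likelihood F-test of edgeR 4.0.16 (R 4.3.3) on TMM-normalised counts. All 12 libraries entered 1 fit of 3 group means. Low features were removed by filterByExpr (count 5, total 15), which left 1334 hosts, 1519 junctions and 1525 entries; p-values were adjusted over all of them after Benjamini-Hochberg, with a threshold of 0.05. The scripts were tested on simulated data. Single values were compared by exact two-sided permutation of libraries, for 6 measures in 3 comparisons. Of these only the test of the share was planned, and each adjustment covered the 3 comparisons of 1 measure. Alternatives used DESeq2 1.42.0, limma-voom (limma 3.58.1), other normalisations and filters, left-out libraries, a replicate block, a depth term and SRPBM library sizes.

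Libraries held 18176 to 37229 reads, so a count of 0 allows up to 80.6 to 165 RPM (3 reads). Intervals and floors cover counting error only, and PCR copies are not told apart. Spidr, the lists and the tests were chosen with earlier results of these data known. Named are Spidr junctions with at least 10 reads or past the filter, the 5 hosts with the highest correlation and the 1 with the lowest, the hosts of the next 2 junctions that have one, the most read hosts of each repair list and the nearest hosts on the chromosome; other Spidr entries, the cell type markers and circRNA5984 were named after their values were seen.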

Additional observations from a re-analysis of the deposited data

Results flagged for a closer look

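In sham, circRNA278 had 98.2 SRPBM in sham 1, where the next library had 62.0 SRPBM. The gap was 0.809 of the range of the 5 sham libraries, above the 95% critical value of 0.71 of Dixon's test. This was 1 of 20 groups of values examined, and chance flags about 1 in 20. In RPM, where all back-splice reads are the denominator, the same library was also the highest sham library, with 21282 RPM against 17946 in the next, and did not pass that limit. Sham 1 also held the most back-splice reads of the sham libraries, 30213. Its total over all junctions was 4613 SRPBM, against 3115 to 3455 in sham 2 to 5.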

How the results depend on the processing

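No alternative called Spidr or any of its junctions, and the summed level kept its direction in all: its log2 fold change was 0.16 to 0.42 for sleeve gastrectomy against sham, 0.00 to 0.35 between relapse and sleeve gastrectomy, and 0.23 to 0.73 between relapse and sham, left-out libraries included. Leaving out 1 library gave circRNA278 −0.16 to 0.34 between relapse and sleeve gastrectomy, circRNA277 −0.18 to 0.30 and circRNA275 −0.10 to 0.82 between sleeve gastrectomy and sham, and circRNA276 −0.14 to 0.10 between relapse and sleeve gastrectomy. CircRNA276 had −0.057 there with a minimum count of 10 and −0.014 with the 2 groups alone, and circRNA275 had −0.59 between sleeve gastrectomy and sham from entries named by symbol alone; the cause was not tested. The share of circRNA278 differed by −1.75 to 0.0127 percentage points (sleeve gastrectomy and sham), −2.21 to 0.345 (relapse and sleeve gastrectomy) and −3.20 to −0.653 (relapse and sham) when 1 library was left out. From symbol entries alone the 3 differences were −0.25, −1.82 and −2.07.

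Counts of called features moved. Hosts between sleeve gastrectomy and sham went from 2 to 0 with a minimum count of 10, DESeq2 or the 2 groups alone, to 1 with the replicate block or symbol entries alone, and to 0 to 2 without 1 library. Between relapse and sleeve gastrectomy they went from 1 to 2 without a filter and to 0 with a minimum count of 10, DESeq2, the 2 groups alone or symbol entries alone, and to 0 to 1 without 1 library. Between relapse and sham they went from 2 to 1 with a minimum count of 10, the 2 groups alone or symbol entries alone, to 3 with DESeq2 size factors, total reads, no filter, limma-voom or the replicate block, to 4 with the depth term, and to 0 to 5 without 1 library. Junctions, 0 in each comparison, became 2 without a filter (relapse and sleeve gastrectomy), 1 without a filter or by limma-voom (relapse and sham), and 0 to 9 and 0 to 8 without 1 library. Entries, also 0, became 3 without a filter, 2 by DESeq2 and 4 by limma-voom (relapse and sleeve gastrectomy), 1 without a filter or by DESeq2 (relapse and sham), and 0 to 6 and 0 to 5 without 1 library.

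Same-numbered libraries did not deviate together: their correlations ran from −0.0930 to 0.0210 between sleeve gastrectomy and sham, none of 5 over 0.1. Of the 5 libraries, 0 correlated best with its own number, so no pairing by number was seen. Differently numbered pairs also had a mean near 0, 0.0047, so this check can show little. What the number stands for is not given in the sources used. With the replicate block the log2 fold changes of summed Spidr were 0.23, 0.15 and 0.38 and those of circRNA278 0.23, 0.15 and 0.39 in the 3 comparisons; between relapse and sham circRNA276 had 0.996 and circRNA275 3.23; called junctions numbered 1, 2 and 1 and called entries 1, 2 and 1. With 2 relapse libraries and 18176 to 37229 reads, junctions of a few reads, such as circRNA275, were at or near the limit that a count of 0 allows in several libraries.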

Other observations

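The hosts beside Spidr had few back-splice reads. Prkdc, on the same strand 72421 bases upstream of the outermost Spidr edge, had 12 entries with 69 reads, of which 47 lay in circRNA2759. On the other side, 69982 bases beyond the last Spidr edge, the host ENSRNOG00000001825 had 1 entry with 9 reads, 4 in sham 4 and 5 in sleeve gastrectomy 2. Between Spidr and Prkdc an intergenic junction, circRNA5984 (chr11:89244488-89254600), had 15 reads: 3 in sham 3, 2 and 5 in sleeve gastrectomy 4 and 5, and 5 in relapse 2. It shares no edge with a Spidr junction.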
